A study of Mus musculus with 40 samples.

Results

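The miR-30 family comprises microRNAs whose 5p strands carry the same seed, and its reads in total blood of ageing mice were followed over 4 ages. The members were the 7 rows of the deposited count table named mmu-miR-30a-5p, mmu-miR-30a-3p, mmu-miR-30b-5p, mmu-miR-30c-5p, mmu-miR-30d-5p, mmu-miR-30e-5p and mmu-miR-30e-3p, out of 1915 microRNAs in the table. All 7 were among the 105 microRNAs that passed the filter of more than 100 reads in at least 50% of the libraries. Small RNA had been sequenced from male C57B/6J wild-type mice aged 12, 13.5, 15 and 16.5 months, and each age had 10 of the 40 libraries. The animals were single housed and were bled from the orbital sinus about every 6 weeks. The study held a homecage group and a learning group that was trained in a water maze before the later collections, and the labels of these libraries name neither. Age therefore cannot be told apart from the number of earlier bleedings or training rounds. All groups were wild type and carried no transgene.

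A microRNA gene is transcribed as a hairpin, from which the processing enzymes Drosha and Dicer cut a duplex of a 5p and a 3p strand. One strand, the guide, is loaded into an Argonaute protein, and its seed (bases 2 to 8) pairs with target messages, whereas the other strand is usually degraded. In the miR-30 family the 5p strand is the usual guide. Known targets of the 5p strands include Snai1, a driver of epithelial-to-mesenchymal transition, Becn1, which starts autophagy, and Dll4, a Notch ligand of endothelial cells. In whole blood the reads come mostly from blood cells, and fewer cells of a type and less microRNA per cell cannot be told apart.

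The mature sequences show how closely the members are related. For 5 of the 7 members a sequence was held by the RefSeq table used here (GRCm38.p6), and they are printed because the counting of the members rests on single bases. The seed is in capitals.
mmu-miR-30a-5p: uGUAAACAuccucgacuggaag
mmu-miR-30e-5p: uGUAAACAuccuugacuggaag
mmu-miR-30c-5p: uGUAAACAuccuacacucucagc
mmu-miR-30a-3p: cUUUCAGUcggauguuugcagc
mmu-miR-30e-3p: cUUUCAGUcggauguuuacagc

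The 3 printed 5p strands shared the seed GUAAACA, and the 3p strands shared the seed UUUCAGU, so that each set of strands is predicted to reach its own set of targets. Counted from 1 at the 5′ end, miR-30a-5p and miR-30e-5p differed by C13U and were identical at the other 21 of 22 positions. On the 3p side, miR-30a-3p and miR-30e-3p differed by G18A and were again identical at 21 of 22 positions. miR-30c-5p departed further from miR-30a-5p, by C13A, G14C, G18C, G19U and A20C. The authors mapped reads without a mismatch, so a read that covers the differing base enters 1 of the rows. They discarded reads under 18 bases. Only a read that starts ahead of a 3p strand could thus end before its base 18 and not be assigned to miR-30a or miR-30e by that base. Among 1679 names in the table, 4 held the 5p seed. The only 1 of these outside the members was mmu-miR-384-5p, which had 0 reads in each of the 40 libraries, and no other name held the 3p seed.

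The hairpins of miR-30a and miR-30e are printed because both of their strands were members. The 5p and 3p strands are in capitals.
Mir30a: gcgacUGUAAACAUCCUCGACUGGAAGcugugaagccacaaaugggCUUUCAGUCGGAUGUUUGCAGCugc
Mir30e: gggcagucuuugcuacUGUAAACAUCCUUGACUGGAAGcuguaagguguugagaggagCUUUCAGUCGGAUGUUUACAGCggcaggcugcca

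Mir30a lies at chr1:23272269-23272339 on the plus strand (GRCm38.p6), and its strands are separated by 19 bases of loop. GENCODE M21 places no other gene over it. Mir30e lies at chr4:120772606-120772697 on the minus strand, in an intron of Nfyc, a subunit of the CCAAT-binding factor NF-Y that is transcribed in the same direction. On the opposite strand of the Mir30e hairpin the annotation holds Mir30f, whose mature strand had 2 reads in all 40 libraries. miR-30c-5p is made from 2 hairpins, whose reads the authors summed. Mir30c-1 (chr4:120769534-120769622, minus strand) lies in an intron of Nfyc at 2983 bases from Mir30e. Mir30c-2 (chr1:23291701-23291784, plus strand) lies in an exon of the long non-coding RNA Gm27028 at 19361 bases from Mir30a. A count of miR-30c-5p can therefore stem from either locus.

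The libraries held 2469196 to 21386209 counts, and outside miR-486, the dominant microRNA of red cells, 93002 to 1739959. At 15 months the counts outside miR-486 were lowest as a group, at 114748 to 412457, against 590397 to 1425543 at 12 months. Levels are given as log2 CPM, counts scaled to a common library size, with 1 correction factor for each library from the trimmed mean of M-values (TMM), which holds only where the bulk of microRNAs stays level. The 16.5-month library X5351 (libraries are called by the opening of their column name) stood apart from the rest, with a connectivity Z-score (its summed correlation with all other libraries, standardised) of -3.28 and the fewest counts, so that counts of calls are also given without it. The column names of 13.5 and 15 months end in a letter and a number, with the letter A at 13.5 and B or C at 15 months. Those of 12 and 16.5 months end in a letter alone. Whatever these endings mark cannot be told apart from age in comparisons with 13.5 or 15 months. Of the red-cell list, 4 of 7 tested rows were called over age, or 3 of 5 once the equal rows of miR-486a and miR-486b are counted once, beside 61% of all 105 tested, and its summed level ranged from 18.96 to 20.96 on the log2 CPM scale at 15 months and from 18.07 to 18.95 at 13.5 months. Of the lymphoid list 2 of 2 tested microRNAs were called over age. Of the myeloid list 0 of 3 were called by edgeR, with 1 at an unadjusted p under 0.05, whereas DESeq2 called 3 of 3. Their part in the values of the family was not tested. Platelet and endothelial miR-126a-3p and miR-126a-5p did not exceed 20 and 118 counts in any library, and liver miR-122-5p did not exceed 3.

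The 5p members were by far the more abundant strands. Over the 40 libraries the level was 10.35 ± 0.22 for miR-30d-5p, 9.99 ± 0.30 for miR-30c-5p and 9.63 ± 0.40 for miR-30a-5p (log2 CPM, mean ± SD, n = 40). It was 7.77 ± 0.37 for miR-30e-5p and 6.23 ± 0.51 for miR-30b-5p. The 3p members were lowest, at 4.07 ± 0.32 for miR-30a-3p and 3.53 ± 0.47 for miR-30e-3p. All sequences printed above have 22 or 23 bases, so that levels were compared without a correction for length. The first 3 in this order lay close together, since miR-30d-5p exceeded miR-30c-5p in 31 of 40 libraries and miR-30c-5p exceeded miR-30a-5p in 32 of 40, with mean differences of 0.36 ± 0.40 and 0.36 ± 0.45 (log2, SD) that were smaller than their spread. miR-30a-5p exceeded miR-30e-5p, miR-30e-5p exceeded miR-30b-5p and miR-30b-5p exceeded miR-30a-3p in 40 of 40 libraries. The last 2 differed by 0.54 ± 0.49, with miR-30a-3p higher in 35 of 40 libraries.

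In reads, miR-30d-5p ranged from 1369 to 35354 counts per library and miR-30a-5p from 1057 to 21971. The rare 3p strands rested on far fewer reads, with 16 to 565 counts for miR-30a-3p and 18 to 383 for miR-30e-3p. miR-30e-3p passed the filter with exactly 20 of 40 libraries over 100 reads, of which 9 were of 12 months, 3 of 13.5, 2 of 15 and 6 of 16.5 months. The summed reads of the 7 members made up 0.432% ± 0.093 of all counts at 12 months, 0.373% ± 0.104 at 13.5, 0.279% ± 0.101 at 15 and 0.41% ± 0.173 at 16.5 months (SD, n = 10 each). The miR-486 reads, which the table enters in 2 equal rows, set most of that total. Outside miR-486 the family took 5.99% ± 0.36, 5.33% ± 0.857, 6.56% ± 0.762 and 6.03% ± 0.804, so that the order of 15 months changed from lowest to highest with the denominator.

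Which members changed with age was asked over the 4 ages and between each pair of ages. By edgeR's quasi-likelihood test with Benjamini-Hochberg adjustment over the 105 microRNAs, 4 of the 7 members were called over age, against 64 of 105 tested microRNAs (61%). The family was thus called at a share close to that of all microRNAs tested. The called members were miR-30e-3p (adjusted p = 1.17e-06), miR-30a-5p (7.19e-06), miR-30a-3p (0.0355) and miR-30b-5p (0.042). Those not called were miR-30e-5p (0.153), miR-30d-5p (0.166) and miR-30c-5p (0.284), each of which some other settings called. Without the 16.5-month library that stood apart, 2 of 7 were called, beside 61 of 105 tested microRNAs. Here miR-30a-3p (0.0637) and miR-30b-5p (0.0552) no longer passed, whereas all 13 calls between pairs of ages described next were kept.

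**Figure D1:**
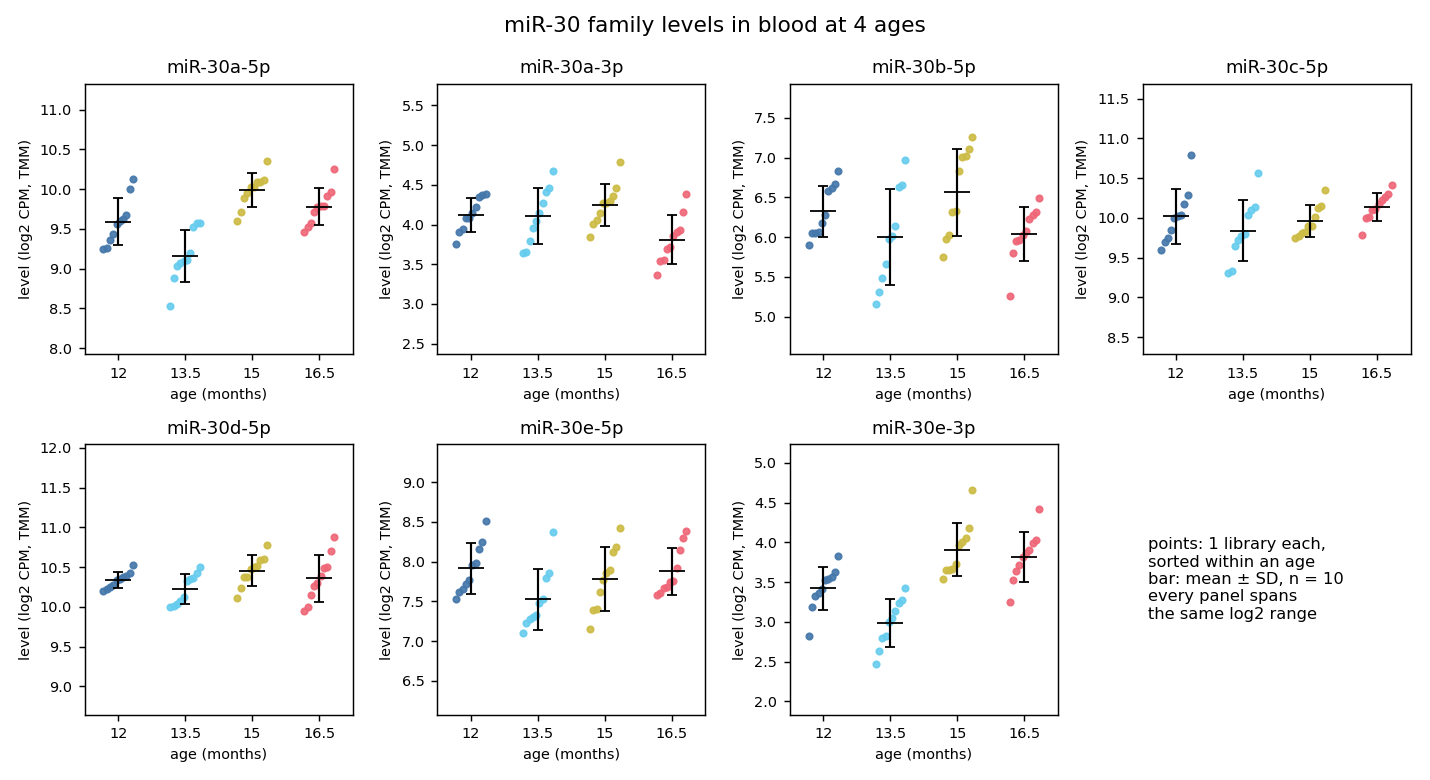
Level of each member in every library at 4 ages. The y axis is log2 CPM with TMM scaling and spans the same range in each panel, points are libraries sorted within an age, and bars are the mean ± SD of 10 libraries. With TMM, miR-30a-5p and miR-30e-3p sit lowest at 13.5 months and highest at 15 months, and with library totals the 15 v 12 months difference of both turns negative.

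miR-30a-5p, the 5p strand of Mir30a, was with TMM lowest at 13.5 and highest at 15 months. With library totals alone its changes from 12 months were -0.44 at 13.5, -0.39 at 15 and -0.02 at 16.5 months, none of which passed. Its level had a lowest, median and highest value of 9.24, 9.59 and 10.13 at 12 months and of 8.53, 9.10 and 9.58 at 13.5 months. At 15 months these were 9.60, 10.03 and 10.35, and at 16.5 months 9.46, 9.78 and 10.26 (log2 CPM, n = 10 each). In these TMM levels the libraries of 13.5 and 15 months did not overlap, a gap found for 5 of 105 tested microRNAs (4.76%). All other pairs of ages overlapped. Overlap under other scalings was not computed.

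With TMM miR-30a-5p fell by 0.42 ± 0.12 (log2, SE) between 12 and 13.5 months, with an adjusted p of 0.00684 and 10 of 10 libraries below the earlier mean. It then rose by 0.81 ± 0.12 between 13.5 and 15 months (1.75-fold, adjusted p = 1.2e-06, 10 of 10 libraries above the earlier mean), where library totals alone gave 0.05 (adjusted p = 0.869). At 15 months it was higher than at 12 months by 0.38 ± 0.12 (adjusted p = 0.0225), a difference that turned to -0.39 with library totals alone. The level at 16.5 months exceeded that at 13.5 months by 0.60 ± 0.12 (adjusted p = 9.63e-05). Neither 16.5 v 12 months (0.18 ± 0.12, adjusted p = 0.29) nor 16.5 v 15 months (-0.20 ± 0.12, adjusted p = 0.219) passed the test. All 5 calls of miR-30a-5p, over age and between ages, were kept when each of the 40 libraries was left out in turn.

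miR-30b-5p varied more over the 40 libraries than any other member, with an SD of 0.61 at 13.5 and of 0.55 at 15 months. Its lowest, median and highest level was 5.90, 6.23 and 6.84 at 12 months, 5.16, 6.00 and 6.98 at 13.5, 5.75, 6.58 and 7.26 at 15 and 5.26, 6.06 and 6.49 at 16.5 months. Every pair of ages overlapped. With TMM it rose by 0.54 ± 0.21 from 13.5 to 15 months (adjusted p = 0.0286), where library totals alone gave -0.15, and it fell by 0.58 ± 0.21 from 15 to 16.5 months (adjusted p = 0.0306, 10 of 10 libraries below the earlier mean). Either call was lost without any 1 of 5 libraries, which were the 15-month libraries X5344, X5347, X5351 and X5356 and, respectively, the 13.5-month library X5355 and the 16.5-month library X5349. The adjusted p then reached at most 0.07 and 0.067.

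miR-30c-5p was not called by edgeR with TMM at any pair of ages, but was under some other settings. Its lowest, median and highest level was 9.60, 10.01 and 10.79 at 12 months, 9.31, 9.78 and 10.57 at 13.5, 9.75, 9.90 and 10.36 at 15 and 9.78, 10.15 and 10.42 at 16.5 months. The nearest was 16.5 v 13.5 months, at 0.26 ± 0.13 (adjusted p = 0.114, 9 of 10 libraries above the earlier mean). The highest library at 13.5 months was X5344, at 10.57. Without it miR-30c-5p was called over age (adjusted p = 0.00749), with a change of -0.31 from 12 to 13.5 months (adjusted p = 0.0251), of 0.28 from 13.5 to 15 months (adjusted p = 0.0304) and of 0.43 from 13.5 to 16.5 months (adjusted p = 0.00143). The comparison of 16.5 with 13.5 months also passed when any 1 of 16 libraries was left out, and on all libraries with DESeq2 (0.31, adjusted p = 0.0228), median-ratio factors (0.31, adjusted p = 0.0315) and voom (0.35, adjusted p = 0.00699). With library totals alone its change from 12 to 15 months was -0.84 (adjusted p = 0.00112), the same as the median of all 105 tested microRNAs under that scaling.

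miR-30d-5p had the smallest SD of the members over the 40 libraries (0.22), at 0.10 at 12 months and 0.29 at 16.5 months, where miR-30c-5p (0.18) and miR-30a-5p (0.23) varied less. The lowest, median and highest values were 10.20, 10.35 and 10.53 at 12 months, 10.004, 10.23 and 10.51 at 13.5, 10.11, 10.49 and 10.77 at 15 and 9.95, 10.35 and 10.87 at 16.5 months. A rise of 0.23 ± 0.10 from 13.5 to 15 months passed the test with TMM (adjusted p = 0.0441), where library totals alone gave -0.51. That call was lost without any 1 of 7 libraries, which were the 13.5-month library X5345 and the 15-month libraries X5344, X5345, X5347, X5351, X5355 and X5356, at adjusted p up to 0.0963. The size of this change was the smallest of the 13 calls. DESeq2 gave 0.34 for it (adjusted p = 0.00137). Over age edgeR with TMM did not call miR-30d-5p, whereas DESeq2 (adjusted p = 0.0102), median-ratio factors (0.0228) and voom (0.00467) did. Library totals alone (0.102) and a filter of more than 1 read (0.411) did not.

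miR-30e-5p, which departs from miR-30a-5p by a single base, was not called by edgeR with TMM, whereas other tools and scalings called it. Its lowest, median and highest level was 7.53, 7.86 and 8.51 at 12 months, 7.10, 7.41 and 8.37 at 13.5, 7.15, 7.82 and 8.43 at 15 and 7.58, 7.75 and 8.38 at 16.5 months. Its mean was lowest at 13.5 months, with a change of -0.37 ± 0.16 from 12 to 13.5 months (adjusted p = 0.0742) and of 0.33 ± 0.16 from 13.5 to 16.5 months (adjusted p = 0.0958), neither of which passed. DESeq2 called it over age (adjusted p = 0.0213), with changes of -0.43 from 12 to 13.5 months (adjusted p = 0.0137), 0.39 from 13.5 to 15 months (adjusted p = 0.0184) and 0.39 from 13.5 to 16.5 months (adjusted p = 0.0199). Median-ratio factors (adjusted p = 0.0361 over age) and voom (3.38e-04) called it over age and at the same 3 pairs. The log2 ratio of miR-30a-5p to miR-30e-5p within a library, which no scaling of libraries can move, averaged 1.68 ± 0.23 at 12 months, 1.63 ± 0.23 at 13.5, 2.21 ± 0.30 at 15 and 1.90 ± 0.21 at 16.5 months. At 15 months it ranged from 1.91 to 2.74, above all 13.5-month libraries (1.201 to 1.87). The TMM level of miR-30a-5p, which enters the ratio, had no overlap between these ages either. How common such a gap is among other ratios was not computed.

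miR-30a-3p, the rarer strand of Mir30a, was 1 of the microRNAs that the study had picked for their relation to memory performance. With TMM no pair of ages before 16.5 months was called for it by edgeR. Its lowest, median and highest level was 3.75, 4.11 and 4.39 at 12 months, 3.64, 4.10 and 4.67 at 13.5, 3.84, 4.27 and 4.78 at 15 and 3.37, 3.79 and 4.39 at 16.5 months. With TMM it fell by 0.44 ± 0.14 from 15 to 16.5 months (adjusted p = 0.0141, 9 of 10 libraries below the earlier mean), where library totals alone gave 0.11. The difference from 12 to 16.5 months was -0.29 ± 0.13 (adjusted p = 0.111), and from 12 to 13.5 months it was 0.01 ± 0.13 (adjusted p = 0.97). Voom called 15 v 13.5 months (0.29, adjusted p = 0.0262) and 16.5 v 12 months (-0.37, adjusted p = 0.00821). With 1 factor of unwanted variation removed, 16.5 v 13.5 months was called (-0.31, adjusted p = 0.0134). Library totals alone called 15 v 12 months (-0.61, adjusted p = 0.0374) and 15 v 13.5 months (-0.60, adjusted p = 0.0468), beside medians of -0.84 and -0.81 over all 105. The call between 15 and 16.5 months was kept without each library in turn, but was lost with 2 factors of unwanted variation removed (-0.28, adjusted p = 0.0828) and with no filter other than any read (-0.41, adjusted p = 0.316), and the call over age was lost without the 15-month libraries X5351 or X5356 or the 16.5-month libraries X5344 or X5351, and with 2 such factors removed (adjusted p = 0.133).

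miR-30e-3p, the rarer strand of Mir30e, had the largest fold change of the 7 members with TMM. The lowest, median and highest level was 2.83, 3.47 and 3.83 at 12 months, 2.48, 3.03 and 3.43 at 13.5, 3.54, 3.85 and 4.66 at 15 and 3.26, 3.84 and 4.43 at 16.5 months. In these TMM levels the libraries of 13.5 and 15 months did not overlap, as for 5 of 105 tested microRNAs, and overlap under other scalings was not computed. With TMM it fell by 0.44 ± 0.14 from 12 to 13.5 months (adjusted p = 0.0148) and rose by 0.97 ± 0.14 from 13.5 to 15 months (1.95-fold, adjusted p = 8.86e-07, 10 of 10 libraries above the earlier mean), where library totals alone gave 0.26 (adjusted p = 0.381). Against 12 months it was higher by 0.52 ± 0.14 at 15 months (adjusted p = 0.00595), where library totals alone gave -0.20, and by 0.41 ± 0.14 at 16.5 months (adjusted p = 0.0273). Against 13.5 months the 16.5-month level was higher by 0.85 ± 0.14 (1.8-fold, adjusted p = 5.03e-06). Of these, the 16.5 v 12 months call was lost without any 1 of 6 libraries (12-month X5349, X5351 and X5354, 16.5-month X5343, X5346 and X5356), at adjusted p up to 0.0746, and the others were kept.

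Across the family, calls by edgeR with TMM were in 1 direction within each pair of ages. Other settings gave other calls, and with library totals alone those at 15 v 12 months were all lower. At 13.5 v 12 months 2 members were lower and 0 higher by edgeR (unadjusted p under 0.05 for 3 and 0, DESeq2 3 and 0), where 14.3% of the 105 tested microRNAs were lower and 15.2% higher. At 15 months 2 members were higher and 0 lower than at 12 months (unadjusted 2 and 0, DESeq2 2 and 0), against 7.62% higher and 16.2% lower. The comparison of 16.5 with 12 months had 1 member higher and 0 lower (unadjusted 1 and 1, DESeq2 1 and 0), against 13.3% higher and 10.5% lower.

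The step from 13.5 to 15 months had 4 of 7 members higher and 0 lower (unadjusted 4 and 0, DESeq2 5 and 0), against 17.1% higher and 30.5% lower. In the same step, with TMM, the red-cell microRNAs miR-144-5p (1.24) and miR-486-5p (1.02, adjusted p = 5.9e-04 for both) were called higher and miR-16-5p (-0.55, adjusted p = 0.00407) lower, while miR-451a (0.59, adjusted p = 0.131) and miR-486-3p (0.51, adjusted p = 0.534) did not pass. The summed red-cell level had medians of 18.59 at 13.5 and 19.26 at 15 months. From 13.5 to 16.5 months 2 members were higher and 0 lower (unadjusted 3 and 1, DESeq2 4 and 0), against 18.1% higher and 21.9% lower. With 1 factor of unwanted variation removed, miR-30a-5p, miR-30e-5p and miR-30e-3p were called higher there and miR-30a-3p lower (-0.31, adjusted p = 0.0134). In that setting 62 of 105 tested microRNAs were called. From 15 to 16.5 months 0 members were higher and 2 lower (unadjusted 0 and 2, DESeq2 0 and 3), against 19% higher and 9.52% lower. The median log2 fold change of the 7 members was 0.25 at 15 v 13.5 months beside -0.02 over all 105, and at 13.5 v 12 months it was -0.24 beside 0.01.

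**Figure D2:**
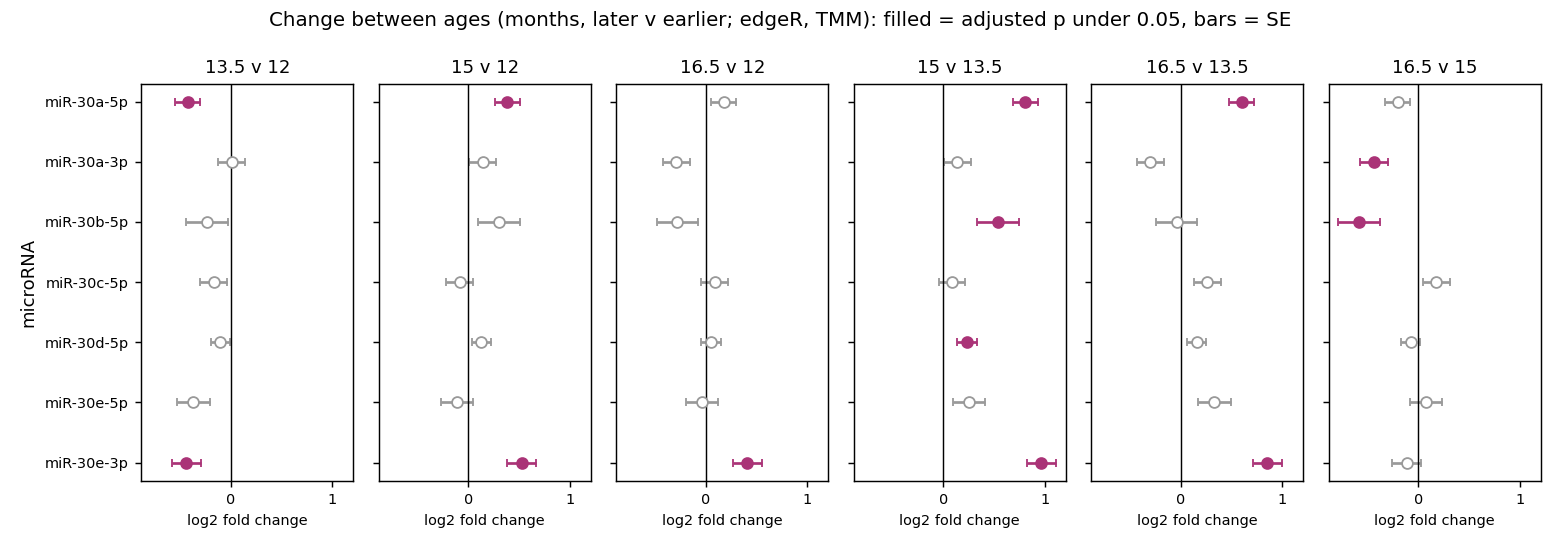
Log2 fold change of each member between every pair of ages (x axis, later against earlier age, TMM), with its SE as a bar. Filled points passed the edgeR test at an adjusted p under 0.05, which 13 of 42 did, and 5 of these 13, each with 15 months on 1 side, change sign with library totals alone.

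The scaling mattered for calls at every pair of ages, and the median change moved most where 15 months was involved. With library totals alone 0 of the 13 calls passed. Those without 15 months kept their sign, at adjusted p from 0.0543 (miR-30e-3p, 16.5 v 13.5 months) to 0.582 (miR-30e-3p, 16.5 v 12 months). When counts were scaled by library totals alone, the median change of all 105 microRNAs was -0.84 from 12 to 15 months, -0.81 from 13.5 to 15 months and 0.65 from 15 to 16.5 months, and 5 of the 13 calls had the opposite sign. Set against that median, miR-30a-5p lay 0.46 and miR-30e-3p 0.64 above it from 12 to 15 months, and 0.87 and 1.07 above it from 13.5 to 15 months (log2). At 16.5 v 15 months miR-30a-3p lay 0.53 and miR-30b-5p 0.68 below it. Library totals alone gave 7 calls of their own. At 15 v 12 months miR-30a-3p, miR-30c-5p, miR-30d-5p and miR-30e-5p were called lower, where 84 of 105 microRNAs were called. At 15 v 13.5 months miR-30a-3p and miR-30c-5p were called lower (73 of 105), and at 16.5 v 15 months miR-30c-5p was called higher (66 of 105). Median-ratio size factors kept all 13 calls and added 4.

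**Figure D3:**
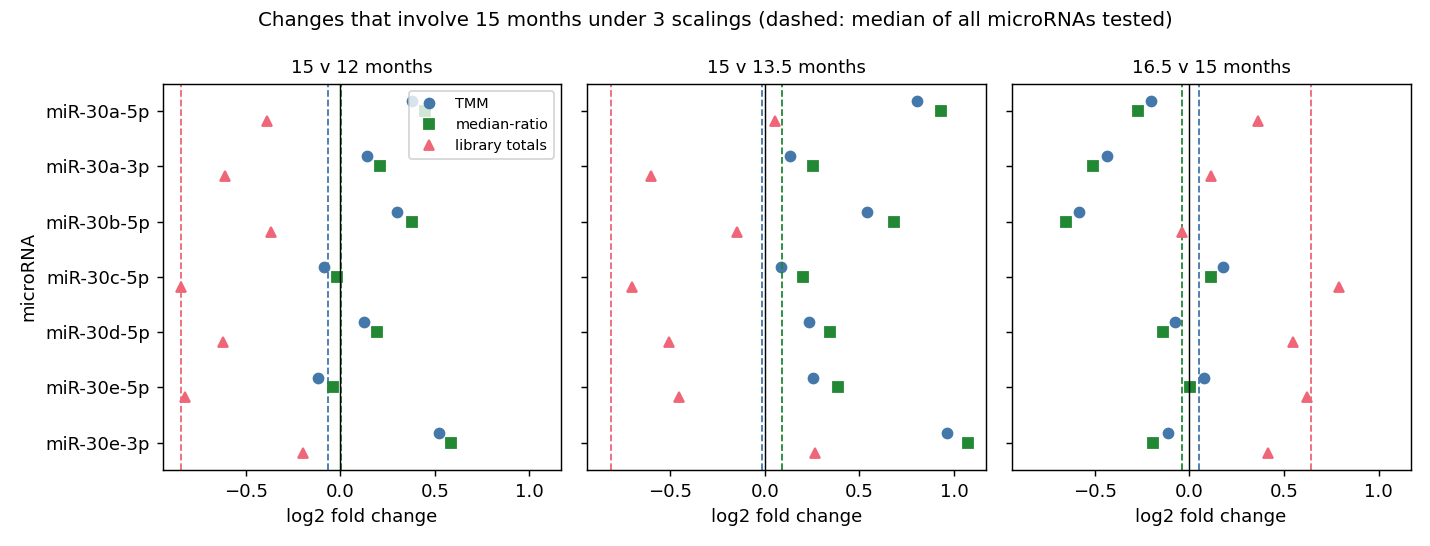
Log2 fold change (x axis) of each member in the 3 comparisons that involve 15 months, with TMM, median-ratio factors or library totals alone. Dashed lines are the median of the 105 microRNAs under the same scaling. With library totals the points shift together with their dashed line, and miR-30e-3p stays to the right of that line in the first 2 panels.

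Ratios within a library are free of this choice. The ratio of 5p to 3p reads asks whether the 2 strands of 1 hairpin kept their proportion with age, and it was tested with limma on log2((5p + 0.5)/(3p + 0.5)) for the 11 hairpins with both strands past the filter. The 2 rows of miR-486a and miR-486b are equal, which leaves 10 distinct pairs. Over age 9 of the 11 pairs were called (81.8%), miR-30a (adjusted p = 1.37e-05) and miR-30e (4.48e-04) among them, so that a change of this ratio was not particular to the family.

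For miR-30a the 5p strand gained on the 3p strand after 13.5 months. There were 45.2 ± 7.95 reads of 5p per read of 3p at 12 months, 35.3 ± 11.7 at 13.5, 54.1 ± 9.49 at 15 and 63.4 ± 8.68 at 16.5 months (SD, n = 10 each). The lowest, median and highest ratios were 35, 48.2 and 54.8 at 12 months, 17.5, 34.1 and 53.5 at 13.5, 42.7, 52.1 and 76 at 15 and 53.8, 61.7 and 82.3 at 16.5 months. The 16.5-month libraries all lay above the 13.5-month libraries, and 2 of 11 pairs (18.2%) had no overlap between these ages.

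The log2 ratio of miR-30a fell by 0.41 ± 0.15 (SE) from 12 to 13.5 months (adjusted p = 0.0373), a call that was lost without any 1 of 11 libraries, and from 12 to 16.5 months its gain was 0.50 ± 0.15 (adjusted p = 0.0269), with 10 of 10 libraries above the earlier mean. At each of these comparisons 27.3% of the 11 pairs were called. It was higher than at 13.5 months by 0.68 ± 0.15 at 15 months (adjusted p = 2.15e-04, 81.8% of pairs called) and by 0.91 ± 0.15 at 16.5 months (1.88-fold, adjusted p = 3.38e-06, 45.5% called). The differences at 15 v 12 months (0.26 ± 0.15, adjusted p = 0.175, 27.3% called) and 16.5 v 15 months (0.23 ± 0.15, adjusted p = 0.252, 27.3% called) did not pass.

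For miR-30e the ratio moved the other way, and the 3p strand gained. There were 23.5 ± 5.62 reads of 5p per read of 3p at 12 months and 24.8 ± 8.01 at 13.5, but 14.8 ± 2.47 at 15 and 17.1 ± 3.31 at 16.5 months. The lowest, median and highest ratios were 13.1, 23.4 and 31.2 at 12 months, 14.1, 23.9 and 38.2 at 13.5, 12, 13.6 and 18.7 at 15 and 11.9, 16.2 and 22.7 at 16.5 months. All pairs of ages overlapped, and 10 of 10 libraries of 15 and of 16.5 months lay below the 12-month mean of the log2 ratio.

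The log2 ratio of miR-30e fell by 0.64 ± 0.17 (SE) from 12 to 15 months (adjusted p = 0.00229) and its difference from 13.5 to 15 months was -0.69 ± 0.17 (adjusted p = 3.4e-04). At 16.5 months the difference was -0.44 ± 0.17 from 12 months (adjusted p = 0.0394), lost without any 1 of 10 libraries, and -0.50 ± 0.17 from 13.5 months (adjusted p = 0.0101). Between 12 and 13.5 months (0.05 ± 0.17, adjusted p = 0.827) and between 15 and 16.5 months (0.19 ± 0.17, adjusted p = 0.3) it did not pass. Of the pairs called at 15 v 13.5 months, 4 gained the 5p and 5 the 3p strand, so that the 2 miR-30 hairpins stood in different groups. Those 4 include the equal rows of miR-486a and miR-486b as separate pairs.

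**Figure D4:**
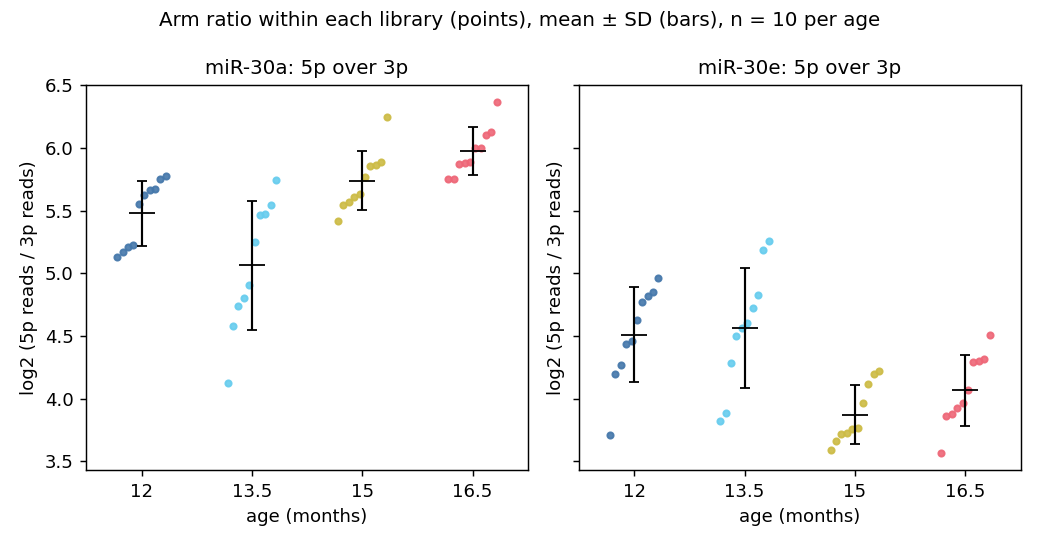
Log2 ratio of 5p to 3p reads of miR-30a and miR-30e in each library at 4 ages (points), with the mean ± SD of 10 libraries (bars). The miR-30a ratio is highest at 16.5 months (mean 5.97) and the miR-30e ratio is lower at 15 and 16.5 months (3.87 and 4.07) than at 12 and 13.5 months (4.51 and 4.56).

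Set against each other, the 5p:3p ratio of miR-30a over that of miR-30e was 0.97 ± 0.41 at 12 months, 0.50 ± 0.48 at 13.5, 1.87 ± 0.33 at 15 and 1.91 ± 0.30 at 16.5 months (log2, mean ± SD). At 15 and 16.5 months it was at least 1.58 and 1.497, and at 13.5 months at most 1.19. Both strands entered into this, the 5p strands by the ratio of miR-30a-5p to miR-30e-5p given above (1.68 at 12 and 2.21 at 15 months) and the 3p strands by the ratio of miR-30e-3p to miR-30a-3p, which was -0.71 ± 0.22 at 12 months, -1.13 ± 0.33 at 13.5, -0.34 ± 0.17 at 15 and 0.01 ± 0.27 at 16.5 months. Reads of miR-30a-3p thus outnumbered those of miR-30e-3p in every library of the first 3 ages, and the strands were level on average at 16.5 months. These ratios are given as a description, since both are built from strands tested above. How often other ratios show such gaps between ages was not computed.

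Within the 5p strands the make-up of the family was read as the share of each member in their summed reads. miR-30d-5p held 38% ± 4.88 and miR-30c-5p 30% ± 5.51 over the 40 libraries (mean ± SD), followed by miR-30a-5p with 23.3% ± 4.04, miR-30e-5p with 6.46% ± 1.25 and miR-30b-5p with 2.26% ± 0.633. miR-30d-5p was first in 31 and miR-30c-5p in the other 9 libraries. The share of miR-30a-5p was 22.6% ± 4.06 at 12 months, 19.4% ± 2.4 at 13.5, 27.1% ± 2.35 at 15 and 24.2% ± 2.95 at 16.5 months (n = 10 each). Its highest share at 13.5 months, 22.3%, lay below its lowest at 15 months, 23.2%. That gap comes from the same reads as the gap in its level, and how common it is among other shares was not computed.

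miR-30c-5p held 30.5% ± 6.27, 31.3% ± 5.73, 26.8% ± 4.38 and 31.2% ± 4.98 at the 4 ages in order, and miR-30d-5p 37.4% ± 2.26, 40.8% ± 7.25, 37.5% ± 3.54 and 36.3% ± 4.52. These ranges overlapped at all ages. miR-30b-5p took 2.35% ± 0.467, 2.24% ± 0.659, 2.63% ± 0.793 and 1.82% ± 0.276, and miR-30e-5p 7.09% ± 1.38, 6.29% ± 1.26, 5.98% ± 1.33 and 6.48% ± 0.882. No test was run on shares.

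**Figure D5:**
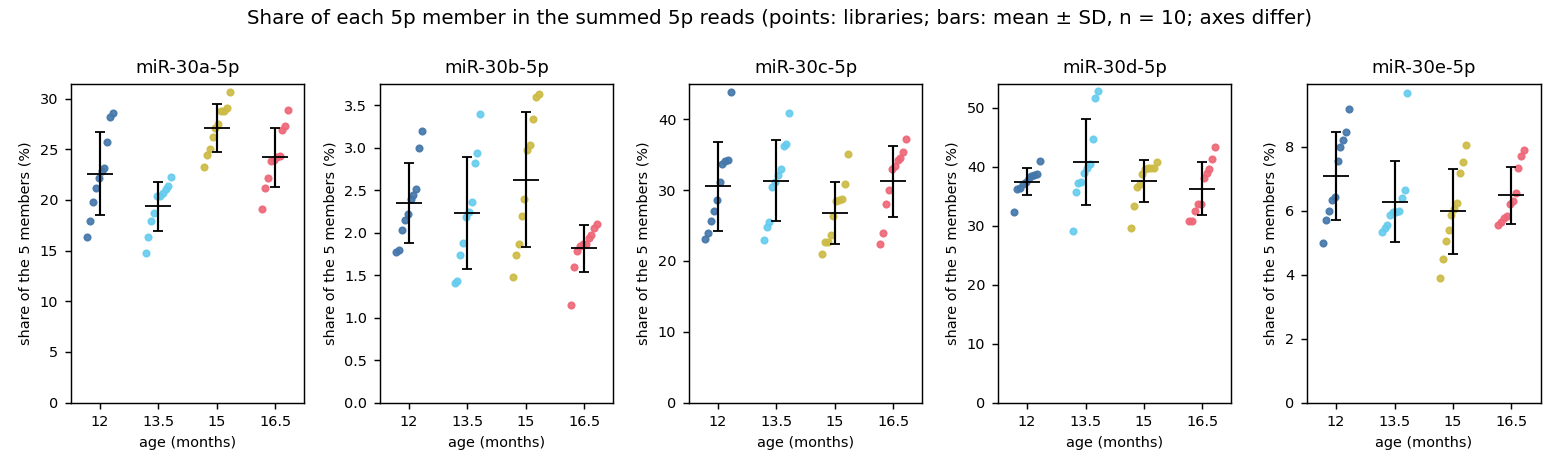
Share of each 5p member in the summed 5p reads of the family (y axis, percent, from 0) in each library at 4 ages, with mean ± SD of 10 libraries. The miR-30a-5p shares of 13.5 and 15 months do not overlap, while those of miR-30c-5p and miR-30d-5p overlap at all ages.

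The members did not vary as a unit across libraries. Over the 40 libraries the closest pair was miR-30a-5p and miR-30e-3p, which come from different hairpins (Pearson's r = 0.746, Spearman's rho = 0.792 of the levels). The 2 strands of miR-30a had an r of 0.195 (rho 0.226) and those of miR-30e an r of 0.468 (rho 0.411). miR-30b-5p and miR-30e-5p had an r of 0.676 (rho 0.703), while miR-30c-5p and miR-30a-3p had the lowest value, -0.511 (rho -0.547). The points share their libraries, their depth and the TMM factors, and age is among what they share, so these values are a description.

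Of the other tested microRNAs, those with the most similar levels over the 40 libraries differed between members. For miR-30a-5p they were miR-186-5p (r = 0.687, rho = 0.634) and miR-192-5p (r = 0.641, rho = 0.582), a microRNA enriched in liver and gut. miR-30b-5p was closest to miR-194-5p (r = 0.751, rho = 0.773), which shares a transcript with miR-192, and to miR-192-5p (r = 0.743, rho = 0.714). miR-30e-5p was closest to miR-21a-5p (r = 0.836, rho = 0.828), on the myeloid list, and to miR-186-5p (r = 0.774, rho = 0.773). For miR-30d-5p they were miR-140-3p (r = 0.719, rho = 0.667) and miR-194-5p (r = 0.715, rho = 0.634), and for miR-30c-5p miR-484 (r = 0.666, rho = 0.692) and miR-130b-5p (r = 0.658, rho = 0.696).

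The 3p strands had other neighbours. miR-30a-3p was closest to miR-148b-3p (r = 0.769, rho = 0.768) and miR-532-5p (r = 0.725, rho = 0.777). miR-30e-3p was closest to miR-361-5p (r = 0.64, rho = 0.605) and to the red-cell microRNA miR-144-5p (r = 0.619, rho = 0.477).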

How the data were processed

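The deposited values are counts of reads per mature microRNA in total blood, 1 column per library. The authors trimmed 50 bp single-end TruSeq reads, mapped them to mm10 and counted them with miRDeep2 against miRBase 21 without mismatches, summing the loci of 1 mature sequence. The submitters' processing notes name FastQC 0.11.5. The second deposited table, a normalized form of these counts, was not used.

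edgeR 4.0.16 (R 4.3.3) was run on the counts. A row was kept if at least 50% of libraries had over 100 reads (105 of 1915). TMM factors, glmQLFit and glmQLFTest gave a test over age and of 6 pairs of ages, adjusted by Benjamini-Hochberg over the 105, with 0.05 as the limit. The SE of a log2 fold change is its size divided by the root of the F statistic. Levels use a prior count of 2. Log2 arm ratios (pseudocount 0.5) were tested with limma 3.58.1 over 11 pairs. The edgeR fit with TMM and the arm-ratio fit were tested on simulated data, and the alternatives were not. Alternatives were DESeq2 1.42.0, voom, other scalings and filters, 1 or 2 factors of unwanted variation, and libraries left out. These factors followed the approach of the study but not its software, and the study does not state how many it removed. Reads carry no molecular identifiers, so counts are not independent molecules.

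Column names hold the age and a number that recurs at each age, without explanation in the sources used here, but not the labels' replicate numbers. Over 60 same-number pairs of libraries, deviations from the age means correlated from -0.867 to 0.86, with 24 over 0.1. Such values cannot tell whether a number marks the same animal, since noise between libraries can hide an animal's own level. Pairing by number thus remains possible, and it was run only as an added block. The tests treat the libraries as independent although the study bled the same animals repeatedly. No library was a duplicate (chi-square per degree of freedom of at least 19.4 in 180 pairs). Members and lists were chosen with earlier results of these data known. By the rule for named microRNAs, the text names the members, other strands and seed relatives, marker lists, and for each member the 2 tested microRNAs of highest Pearson correlation. Sequences are from RefSeq, hosts from GENCODE M21.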

Additional observations from a re-analysis of the deposited data

Results flagged for a closer look

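Reads of 4 further strands of the miR-30 hairpins lay above the limit of 3 counts that a count of 0 allows, although none passed the filter and none enters a comparison. Summed over the 40 libraries there were 485 reads of miR-30c-2-3p, 312 of miR-30d-3p, 277 of miR-30c-1-3p and 29 of miR-30b-3p. miR-30d-3p reached at most 24 counts in a library, beside up to 35354 for miR-30d-5p, so that 1902 reads of 5p stood against each read of 3p in the summed counts. The same quotient was 1187 for miR-30b, 45.1 for miR-30a and 19.9 for miR-30e, which places the 2 hairpins with both strands among the members apart from the others. The log2 ratio of 5p to 3p of miR-30d was 11.25 ± 0.65 at 12 months, 10.97 ± 0.68 at 13.5, 10.41 ± 0.48 at 15 and 10.46 ± 0.62 at 16.5 months (mean ± SD, n = 10), and rested on few 3p reads. Of 36 groups of 10 libraries (each member's level and both arm ratios at each age), 0 had a library whose gap to its neighbour exceeded Dixon's critical value at the 95% level, where chance flags about 1 in 20.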

How the results depend on the processing

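Of the 13 calls between pairs of ages, all kept their direction under 12 alternatives, and with library totals alone 0 were kept and 5 had the opposite sign. Those were miR-30a-5p (-0.39) and miR-30e-3p (-0.20) at 15 v 12 months, miR-30b-5p (-0.15) and miR-30d-5p (-0.51) at 15 v 13.5 months and miR-30a-3p at 16.5 v 15 months (0.11). Members called over age numbered 4, beside 64 of 105 tested microRNAs. With library totals alone they numbered 1 (beside 83 of 105), which was miR-30c-5p (adjusted p = 0.00295) and not among the 4. Those 4 did not pass there, at adjusted p of 0.209 for miR-30a-5p, 0.0644 for miR-30a-3p, 0.631 for miR-30b-5p and 0.102 for miR-30e-3p. Members called over age numbered 2 with no filter other than any read (113 of 1016, more rows tested). With voom and quality weights they numbered 7 (80 of 105), and without the library beyond a Z-score of 2.5 they numbered 2 (61 of 105). DESeq2 (77 of 105) and median-ratio factors (73 of 105) called every member but miR-30c-5p over age. With 1 library left out the members called numbered 2 to 7. Calls between pairs of ages numbered 13, and 7 with library totals alone, 5 with no filter other than any read and 20 with voom. With 1 library left out they numbered 10 to 19. The cause was not tested. With a filter of more than 1 read (more rows tested), miR-30a-5p at 15 v 12 months (adjusted p = 0.0543), miR-30d-5p at 15 v 13.5 months (0.17) and miR-30e-3p at 16.5 v 12 months (0.0849) did not pass, nor did the last with voom (0.0658). The call of miR-30b-5p over age was lost without any 1 of 11 libraries (13.5-month X5345 and X5355, 15-month X5344, X5347, X5351, X5355 and X5356, 16.5-month X5344, X5345, X5349 and X5351), at adjusted p up to 0.11. Uncalled members passed in part without 1 library, such as miR-30d-5p over age without any 1 of 19 and miR-30e-5p at 13.5 v 12 months without any 1 of 15.

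Of the 10 arm-ratio calls, 8 were kept in every alternative run on them, where the permutation test was run on the 8 calls between pairs of ages and not on the 2 over age. The miR-30a difference at 13.5 v 12 months (-0.41) did not pass among 70 arm pairs over 1 read (adjusted p = 0.136, more pairs tested), in a permutation test with 100000 resamples (0.0936) or with array quality weights (-0.33, adjusted p = 0.0682). It ranged from -0.49 to -0.31 with 1 library left out and was lost without any 1 of 11 (12-month X5343, X5344, X5351, X5354, X5355 and X5356, 13.5-month X5343, X5349, X5351, X5355 and X5356). The miR-30e difference at 16.5 v 12 months (-0.44) did not pass among the 70 pairs (adjusted p = 0.0902) or without the 16.5-month library X5351 (-0.43, adjusted p = 0.0635), ranged from -0.53 to -0.39 and was lost without any 1 of 10 (12-month X5343, X5344, X5347, X5351 and X5354, 16.5-month X5344, X5345, X5349, X5351 and X5356).

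The replicate block by the number that opens the column name was added after the data were seen. It gave 4 members over age, beside 66 of 105 tested microRNAs. It also gave 14 calls between pairs, the added one being miR-30e-5p at 13.5 v 12 months (-0.39, adjusted p = 0.0469). All 10 arm-ratio calls were kept with it (miR-30a at 16.5 v 13.5 months 0.91, adjusted p = 5.39e-06). Also added then, 15 months without its 3 columns lettered B gave 4 members over age, beside 64 of 105 tested microRNAs, and 17 calls between pairs. The family's mean share of counts changed with the denominator, to 5.99%, 5.33%, 6.56% and 6.03% outside miR-486. Shallow 15-month libraries limit the 3p strands.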
